A study of Mus musculus with 4 samples.

Results

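NRF2 and antioxidant defence genes are described here in mouse liver, as the 36 genes of a fixed list of NRF2 pathway, glutathione, thioredoxin, pentose phosphate and antioxidant enzyme genes, without the glutathione transferases. They were found by gene symbol among the 56748 genes of the deposited table, and all 36 were present. Liver RNA came from NSG mice, an immunodeficient strain without mature B, T and natural killer cells, with a genotype otherwise labelled WT. The controls were 2 untreated mice, for which the labels name no vehicle gavage, so gavage and compound cannot be told apart. The other 2 mice received JIB-04 by gavage, 55 mg/kg in each of 5 doses, 2 a week. JIB-04 is a small-molecule inhibitor of the Jumonji histone demethylases. Each library was the liver of 1 mouse, per the series' design text, and neither age nor sex is stated in the labels.

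NRF2, encoded by Nfe2l2, is a transcription factor that is held in the cytoplasm and marked for degradation by its sensor KEAP1. Electrophiles and oxidants modify cysteines of KEAP1, after which NRF2 accumulates, pairs with a small MAF protein and binds antioxidant response elements near genes for detoxification, glutathione synthesis, thioredoxin reduction and NADPH supply. Liver expresses several of these enzymes at high levels, though not all of them. Hepatocytes handle reactive drug metabolites and mitochondrial and peroxisomal peroxides.

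The antioxidant response element was searched in the promoters as TGACNNNGC on both strands, in windows from 250 bases before to 50 bases after each start, taken from RefSeq on GRCm38.p6. Of the 36 members 33 matched by symbol, with 40 starts. Gclc, Gsr and Prdx6 did not match and were not searched. The motif lay in 8 of these 40 starts (20.0%), against 12.4% of the 32851 starts in the whole table. Counted by gene it lay in 8 of 33 members (24.2%), against 14.0% of 27025 genes. The 8 were Nfe2l2, Srxn1, Gclm, Prdx1, Pgd, Txnrd1, Sod1 and G6pdx. The sites of 6 of them are shown, because these genes span the list from glutathione synthesis to NADPH supply. Each is written on the strand of its gene, and the capitals mark the motif.
Gclm: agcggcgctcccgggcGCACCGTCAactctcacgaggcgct
Prdx1: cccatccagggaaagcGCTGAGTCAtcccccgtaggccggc
Txnrd1: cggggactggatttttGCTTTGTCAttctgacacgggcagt
Sod1: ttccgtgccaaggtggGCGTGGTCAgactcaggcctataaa
G6pdx: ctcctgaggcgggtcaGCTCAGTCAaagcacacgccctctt
Srxn1: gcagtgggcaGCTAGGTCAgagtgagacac
In GRCm38.p6 these stretches are chr3:122245407-122245447 for Gclm, chr4:116685450-116685490 for Prdx1, chr10:82859098-82859138 for Txnrd1, chr16:90220690-90220730 for Sod1, chrX:74428913-74428953 for G6pdx and chr2:152105542-152105571 for Srxn1, with G6pdx on the minus strand and the others on the plus strand. The motif began 134 bases before the start in Gclm, 133 in Prdx1, 92 in Txnrd1, 56 in Sod1 and 57 in G6pdx, and 28 bases after it in Srxn1. All 6 carry the element on the strand opposite to the gene, so the capitals are its reverse complement. The sites not shown, of Nfe2l2 and Pgd, have it on the strand of the gene. The Prdx1 site holds the full TGACTCAGC, found in 0.454% of all starts. A match is a description of the letters, and neither binding nor a link to expression was tested.

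Expression was deposited as FPKM (fragments scaled to gene length and library depth), which can be compared between genes because it is per length. The reads behind these values came to between 36469514 and 43283827 per library. Across the 10819 tested genes, which share libraries and are no replicates, Pearson's r was 0.985 and 0.984 within the groups and 0.967 to 0.972 between them. Hepatocyte markers summed to 61097 and 59247 FPKM in untreated and 42435 and 35062 in JIB-04 liver, most of it albumin. The sum was high in all 4 libraries. Of the 7 markers, 0 passed the test and 0 had a positive log2 change, where 51.4% of all tested genes had one. In bulk RNA, fewer cells of a type and less RNA per cell cannot be told apart. Red cell markers summed to 2953 and 1845 FPKM in untreated and 655 and 1783 in JIB-04 liver, with 0 of 5 tested past the test. Summed neutrophil markers were 26.8 and 7.44 against 44.6 and 71.7 FPKM, nearly all from S100a8 and S100a9. Of the 2 tested, 0 passed the test and only 1 had a positive log2 change. Summed markers of macrophages ran from 371 to 498, of endothelium from 87.9 to 112, of stellate cells from 115 to 160 and of bile duct from 34.7 to 43.9 FPKM over the 4 libraries, with 0 past the test. Positive log2 changes were found in 0 of 10 tested macrophage, 3 of 8 endothelial, 1 of 7 stellate, 1 of 1 bile duct and 0 of 5 red cell markers. The groups did not overlap in the stellate sum (160 and 127 against 115 and 124) or in the hepatocyte, red cell and neutrophil sums, and the part of cell makeup in the members' levels was not tested. Lymphocyte markers summed to at most 0.269 FPKM, and 5 of their 7 genes, including Cd3e, were at 0 reads in all 4 libraries.

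The members were compared between JIB-04 and untreated liver with limma on log2(FPKM + 1) and a call at a Benjamini-Hochberg adjusted p under 0.05 over all tested genes. On this scale the change of a gene with low FPKM is understated. Of the 36 members 34 had a mean of at least 1 FPKM over the 4 libraries and were tested. Ephx1 rose, 0 members fell and 33 did not pass, so 1 of 34 (2.94%) was called higher, where 1.53% of all tested genes were called higher, 0.619% lower and 2.14% in either direction. Leaving out either JIB-04 library gave 0 calls, and leaving out untreated 2 gave 2 (Aox1 and Ephx1). Voom on the recovered reads called 6 members higher (Ephx1, Aox1, Sqstm1, Gsr, Srxn1 and Txn1), where it called 3.23% of all tested genes higher, and 0 members lower, where it called 1.86% lower. At a limma adjusted p under 0.1 there were 5 members higher, against 2.72% of all tested genes.

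Over all 34 tested members, Ephx1 included, most values leaned upward. Positive log2 changes were found in 28 of 34 (82.4%), against 51.4% of all tested genes, and the median was 0.16, against 0.01 over all tested genes. Leaving out JIB-04 1 moved the median to 0.26, and leaving out JIB-04 2 moved it to 0.11. Both JIB-04 libraries lay above both untreated ones in 20 members (58.8%), where 24.6% of all tested genes did so, and below them in 4 members (11.8%, against 21.8% of all genes). An unadjusted p under 0.05 was reached by 11 members in the upward direction (32.4%, against 9.06% of all genes) and by 1 downward (2.94%, against 6.47% of all genes). The members share pathways and libraries and were listed with earlier results of these data known, so these shares describe the list and carry no test. Within the JIB-04 group, replicate 2 was above replicate 1 in 24 of 34 members, with a median log2 difference of 0.13 against -0.00 over all tested genes. Within the untreated group, replicate 2 was above replicate 1 in 21 of 34, with a median of 0.03, and the difference between these leans was not tested.

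**Figure D1:**
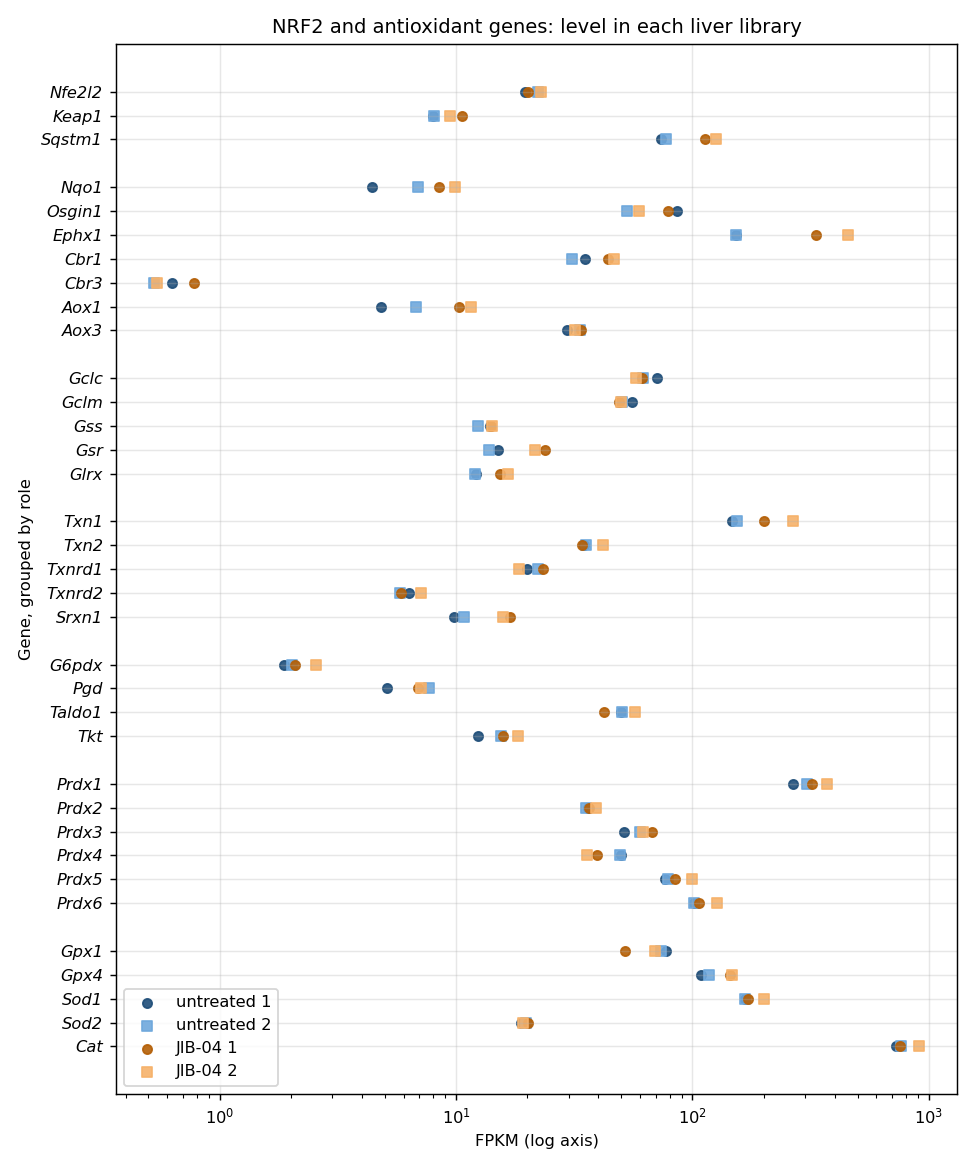
FPKM on a log axis of the 35 members with any reads, grouped by role, with 1 point per liver library (blue untreated, orange JIB-04; circles replicate 1, squares replicate 2). The orange points of Ephx1 (332 and 454) stand clear of its blue points (153 and 152), whereas those of Nfe2l2, Txnrd1 and Sod2 lie among them.

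The regulators were nearly level or higher without passing the test. Nfe2l2 (ENSMUSG00000015839, chromosome 2, 75505857 to 75534985 in GRCm39) stood at 19.5 and 22.2 FPKM in untreated and 20.1 and 22.9 in JIB-04 liver. Its groups overlapped, with a log2 change of 0.04 and a 95% interval from -0.27 to 0.36 (limma adjusted p = 0.932). NRF2 activity is set mainly through the stability of the protein, which was not measured here. Keap1, the sensor, stood at 8.0 and 8.05 in untreated and 10.6 and 9.44 FPKM in JIB-04 liver, with no overlap (log2 change 0.29, SE 0.120, adjusted p = 0.320). Sqstm1 (ENSMUSG00000015837, chromosome 11, 50090193 to 50101654), an autophagy adaptor that binds KEAP1 and is itself an NRF2 target, stood at 73.3 and 77.1 FPKM in untreated and 113 and 126 in JIB-04 liver. Both treated livers were above both controls by more than the spread within either group, a 1.59-fold difference with a log2 change of 0.66 (SE 0.125). Its adjusted p of 0.0548 lay just above the threshold, and over 15 alternatives it ran from 0.0114 to 0.273, passing in 3.

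NRF2 target oxidoreductases and hydrolases held the called gene and the widest range of responses, with 1 of 6 tested members higher and 0 lower. Ephx1 (ENSMUSG00000038776, chromosome 1, 180803775 to 180848469) encodes microsomal epoxide hydrolase, which opens reactive epoxides of drugs and hydrocarbons to diols. Its level was 153 and 152 FPKM in untreated and 332 and 454 in JIB-04 liver, the higher value in replicate 2. It rose 2.57-fold, from 153 ± 0.880 to 393 ± 86.3 FPKM (SD, n = 2; log2 change 1.34, SE 0.174, limma adjusted p = 0.0178), on 10973 and 11212 reads in untreated and 27787 and 32535 in JIB-04 libraries. The call was kept in 12 of 15 alternatives. It ended without JIB-04 1 (adjusted p = 0.0684, log2 change 1.57), without JIB-04 2 (0.123, 1.12) and without a filter on low values (0.200). Ephx1 is also regulated by the xenobiotic receptor CAR, whose targets are set beside it further on. No TGACNNNGC lay in its RefSeq window, which says nothing of more distant elements.

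Aldehyde oxidases, molybdenum enzymes that oxidize aldehydes and nitrogen heterocycles of drugs, differed from each other in level, and neither was called by limma. Aox1 (ENSMUSG00000063558, chromosome 1, 58069090 to 58145572) stood at 4.83 and 6.77 FPKM in untreated and 10.3 and 11.6 in JIB-04 liver, 1.88-fold higher with no overlap (log2 change 0.82, SE 0.165). Its limma adjusted p was 0.0621, from 0.00624 to 0.341 over alternatives, of which 4 passed, among them the one without untreated 2 (0.0470). Aox3 (58152289 to 58239857 on chromosome 1), its neighbour in the same orientation and the more abundant of the pair in these livers, stood at 29.5 and 33.4 FPKM in untreated and 33.8 and 31.9 in JIB-04 liver (log2 change 0.06, 95% interval -0.24 to 0.36, adjusted p = 0.879). The difference between both responses was not tested. No stretch of 100 bases was shared between their transcripts in GENCODE M21, so identity of that length gives no uncertainty in dividing their reads.

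Nqo1, the quinone reductase commonly used as a readout of NRF2, was at 4.42 and 6.89 FPKM in untreated and 8.5 and 9.87 in JIB-04 liver. The groups did not overlap, but untreated 1 and 2 differed widely, and the 1.62-fold difference did not pass (log2 change 0.64, SE 0.197, limma adjusted p = 0.190). It passed in 0 of 15 alternatives, with a lowest adjusted p of 0.0685. Cbr1, a carbonyl reductase of quinones and prostaglandins, was at 35.0 and 31.0 FPKM in untreated and 44.1 and 46.4 in JIB-04 liver (log2 change 0.45, adjusted p = 0.146). Its paralog Cbr3 was too low to be tested, at 0.631 and 0.528 in untreated and 0.781 and 0.543 FPKM in JIB-04 liver, on 25 to 42 reads. Osgin1, an oxidative stress response gene that restrains growth, varied more between animals of a group than between groups, with 85.9 and 52.9 FPKM in untreated and 79.2 and 59.5 in JIB-04 liver. Its 95% interval of the log2 change, -0.67 to 0.72, was the widest of the 34 (adjusted p = 0.983).

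**Figure D2:**
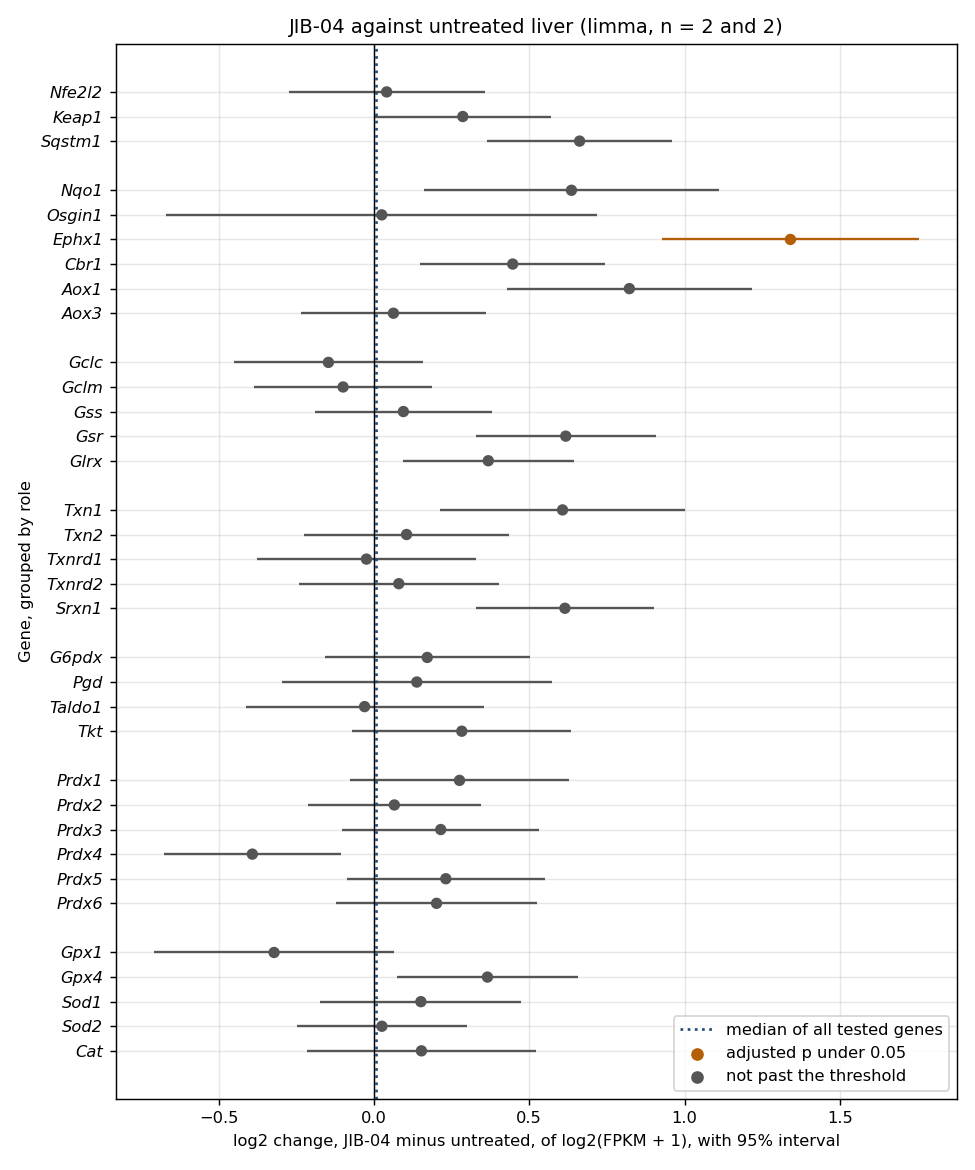
Log2 change of JIB-04 against untreated liver for the 34 tested members, grouped by role, with the 95% interval of each single gene from limma, not adjusted for the number of genes. Only Ephx1 (orange, 1.34) is past the adjusted threshold, and most points lie to the right of the dotted median of all tested genes (0.01).

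Of the glutathione genes 0 of 5 tested passed, with synthesis genes near or below control and recycling genes above it in their values. Gclc, the catalytic subunit of glutamate-cysteine ligase and the rate-limiting enzyme of glutathione synthesis, stood at 70.6 and 61.5 FPKM in untreated and 61.1 and 57.8 in JIB-04 liver. Gclm, the modifier subunit of the same enzyme, stood at 55.6 and 50.5 against 48.8 and 49.9 FPKM. For both the JIB-04 libraries lay slightly below the untreated ones, with log2 changes of -0.15 (95% interval -0.45 to 0.16, limma adjusted p = 0.669) and -0.10 (-0.39 to 0.19, 0.774). Gss, glutathione synthetase, was nearly level at 13.9 and 12.4 against 14.1 and 14.2 FPKM (adjusted p = 0.786).

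Gsr (ENSMUSG00000031584, chromosome 8, 34142551 to 34188191), glutathione reductase, which regenerates reduced glutathione with NADPH, stood at 15.1 and 13.9 FPKM in untreated and 23.8 and 21.6 in JIB-04 liver. That 1.57-fold difference exceeded the spread within both groups (log2 change 0.62, SE 0.122), with a limma adjusted p of 0.0605, from 0.0149 with voom to 0.288 without the filter on low values. Glrx, the glutaredoxin that removes glutathione from protein thiols, stood at 12.1 in both untreated livers and at 15.3 and 16.5 FPKM in JIB-04 liver (log2 change 0.37, adjusted p = 0.186). Both recycling genes were thus above control in both animals without passing. Slc7a11, the cystine importer and an inducible NRF2 target in many cell lines, had 0 reads in all 4 libraries. A count of 0 allows up to 3 reads, or 0.00588 FPKM in untreated 1 and 0.00503 in JIB-04 1, counting error only.

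In the thioredoxin system, which reduces protein disulfides with NADPH, 0 of 5 passed the test. Srxn1 (ENSMUSG00000032802, chromosome 2, 151947436 to 151953296), sulfiredoxin, which restores overoxidized peroxiredoxins, stood at 9.80 and 10.8 FPKM in untreated and 16.9 and 15.8 in JIB-04 liver. Its 1.58-fold difference (log2 change 0.61, SE 0.120) had a limma adjusted p of 0.0589, from 0.0156 to 0.283 over alternatives, of which 2 passed. Txn1, cytosolic thioredoxin, stood at 147 and 155 FPKM in untreated and 200 and 266 in JIB-04 liver, without overlap (log2 change 0.61, SE 0.166, adjusted p = 0.140, and 0.0348 with voom). Txnrd1, the cytosolic reductase that recharges thioredoxin and a standard NRF2 target, was nearly level, at 20.0 and 22.3 against 23.3 and 18.5 FPKM (log2 change -0.02, 95% interval -0.38 to 0.33, adjusted p = 0.968). Srxn1 and Txnrd1 both carry the element shown above, and the difference between their responses was not tested. The mitochondrial pair also overlapped, with Txn2 at 34.9 and 35.4 against 34.2 and 42.0 FPKM and Txnrd2 at 6.30 and 5.81 against 5.83 and 7.13 FPKM (adjusted p = 0.796 and 0.851).

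Pentose phosphate genes, which supply much of the cytosolic NADPH used by both reductases, showed 0 of 4 past the test. G6pdx, glucose-6-phosphate dehydrogenase and the entry step of the pathway, was low at 1.87 and 2.02 FPKM in untreated and 2.08 and 2.56 in JIB-04 liver (log2 change 0.17, limma adjusted p = 0.638), on 211 to 290 reads. Ikbkg overlaps it on the opposite strand at 7.33 to 9.77 FPKM, and no source used here gives the strand setting of the counting, so reads of the overlap cannot be assigned with certainty. Pgd, the next NADPH-producing enzyme, was at 5.10 and 7.71 against 6.92 and 7.12 FPKM (adjusted p = 0.796). Of the non-oxidative enzymes, Taldo1 was at 50.1 and 50.3 against 42.4 and 56.9 FPKM (adjusted p = 0.961) and Tkt at 12.4 and 15.5 against 15.9 and 18.4 FPKM (log2 change 0.28, adjusted p = 0.443). Transaldolase mRNA was thus the most abundant of the 4 per length and glucose-6-phosphate dehydrogenase mRNA the least, in all 4 libraries.

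Peroxiredoxins, which reduce hydrogen peroxide and lipid peroxides through a reactive cysteine, had 0 of 6 past the test, with 5 above and 1 below all untreated values, where 24.6% and 21.8% of all tested genes were so. Prdx1, the most abundant, stood at 265 and 305 FPKM in untreated and 320 and 370 in JIB-04 liver (log2 change 0.28, 95% interval -0.08 to 0.63, limma adjusted p = 0.454). Prdx6, which also has phospholipase activity, stood at 101 in both untreated livers and 107 and 128 FPKM in JIB-04 liver, and Prdx5 at 76.9 and 78.7 against 84.0 and 99.7 FPKM (adjusted p = 0.564 and 0.491). For both of these JIB-04 1 was close to control and JIB-04 2 stood apart. Mitochondrial Prdx3 was at 51.4 and 60.0 against 67.4 and 62.0 FPKM and Prdx2 at 36.3 and 35.5 against 36.3 and 38.9 FPKM (adjusted p = 0.528 and 0.860). Prdx4, the peroxiredoxin of the endoplasmic reticulum, lay the other way, at 49.9 and 49.6 FPKM in untreated and 39.5 and 35.9 in JIB-04 liver. Its log2 change of -0.39 (SE 0.120, unadjusted p = 0.0145) was the only negative one of the 34 with an unadjusted p under 0.05, and it did not pass adjustment (adjusted p = 0.177).

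Peroxidases, dismutases and catalase included the most abundant member, with 0 of 5 past the test. Cat, the peroxisomal enzyme that splits hydrogen peroxide, was the highest of all members at 727 and 763 FPKM in untreated and 753 and 910 in JIB-04 liver (log2 change 0.15, limma adjusted p = 0.715). Sod1, cytosolic superoxide dismutase, was at 167 and 166 against 171 and 200 FPKM, and mitochondrial Sod2 at 18.8 and 19.7 against 20.1 and 19.1 FPKM (adjusted p = 0.678 and 0.955). Sod2 had a 95% interval of the log2 change from -0.25 to 0.30. Gpx4, the selenoenzyme that reduces phospholipid peroxides, stood at 109 and 117 FPKM in untreated and 144 and 148 in JIB-04 liver (log2 change 0.37, adjusted p = 0.213). Of its 100-base stretches 25.2% occur in other genes, chiefly Gpx4-ps2, which was listed at 33.7 and 35.9 against 45.9 and 41.7 FPKM, so the division of reads between them is uncertain.

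Gpx1, the main cytosolic glutathione peroxidase of liver, was at 77.1 and 73.7 FPKM in untreated and 51.9 and 69.6 in JIB-04 liver (log2 change -0.32, 95% interval -0.71 to 0.07, limma adjusted p = 0.422). It was the lowest in JIB-04 1, the library with the lowest sum of red cell markers (655 FPKM, against 1783 in JIB-04 2 and 1845 to 2953 in untreated liver). Red cells are also rich in Gpx1, Prdx2 and Cat. In JIB-04 1, Prdx2 stood at 36.3 FPKM (36.3 and 35.5 in untreated liver) and Cat at 753 (727 and 763). Gpx1 was below both untreated livers in JIB-04 1 and also in JIB-04 2 (69.6 FPKM). The part of red cell RNA in these levels was not tested.

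**Figure D3:**
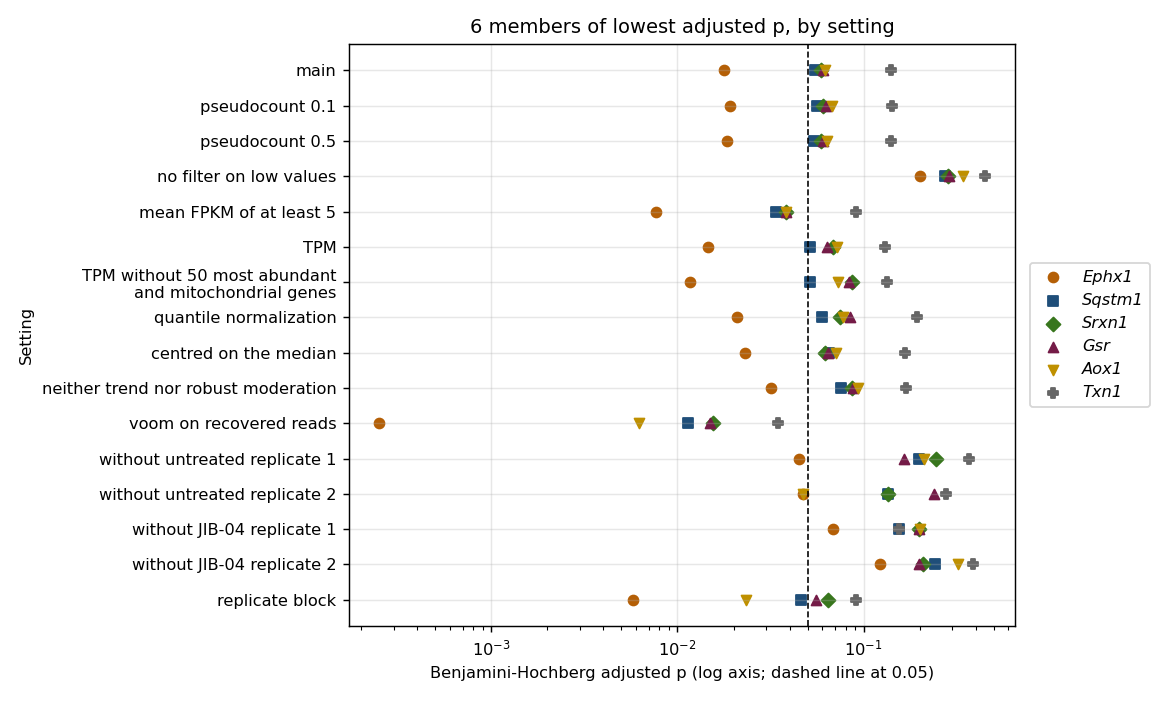
Adjusted p on a log axis of the 6 members with the lowest adjusted p (Ephx1, Sqstm1, Srxn1, Gsr, Aox1 and Txn1) in the fit as reported (main) and under each of 15 alternatives, with a dashed line at 0.05. Ephx1 lies left of the line in all but the setting without a filter and those without a JIB-04 library, and Sqstm1, Srxn1, Gsr and Aox1 sit close to the line in most settings.

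Other genes of the pathway, from lists that do not include the members, were read against the 1.53% of all tested genes called higher and 0.619% called lower. Among 8 tested regulators of NRF2 1 rose and 0 fell (median log2 change 0.11). The gene was Nfe2l1, which encodes NRF1, a related factor that governs proteasome genes and binds similar elements. Its level was 23.7 and 21.7 FPKM in untreated and 40.3 and 37.5 in JIB-04 liver, a 1.71-fold rise (log2 change 0.75, SE 0.122, limma adjusted p = 0.0357). The call ended without each library in turn, at 0.0942 and 0.136 with untreated 1 or untreated 2 left out, and at 0.165 and 0.172 with JIB-04 1 or JIB-04 2 left out. Of 14 other NRF2 targets 2 rose and 0 fell (median 0.46). They were the exporter Abcc3, at 59.9 and 41.9 against 160 and 150 FPKM, and the carboxylesterase Ces1g, at 39.5 and 41.4 against 77.3 and 63.5 FPKM (adjusted p = 0.0125 and 0.0457). The Abcc3 call ended without JIB-04 1 (0.149) and without JIB-04 2 (0.163), and that of Ces1g without untreated 1 (0.161), untreated 2 (0.117), JIB-04 1 (0.171) and JIB-04 2 (0.123). Hmox1, heme oxygenase and a strongly inducible target, stood at 22.1 and 19.2 against 16.2 and 20.9 FPKM (adjusted p = 0.707), and Me1, malic enzyme, at 23.5 and 47.4 against 36.3 and 50.5 FPKM (adjusted p = 0.766). The groups overlapped in Hmox1 and Me1, which do not stand for the whole list. Both JIB-04 libraries lay above both untreated ones in 9 of the 14 targets and below them in 1. Of all tested genes 24.6% lay above and 21.8% below.

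The remaining pathway lists had 0 called members by limma. Glutathione metabolism outside the members (10 tested, median log2 change -0.00, 4 genes above and 4 below all untreated values, where 24.6% and 21.8% of all tested genes were so) had its lowest adjusted p at Chac2, a glutathione-degrading enzyme (34.1 and 33.9 against 24.4 and 22.2 FPKM, adjusted p = 0.0852), followed by Chac1 (0.215) and Slc3a2 (0.265). Thioredoxin and methionine sulfoxide repair genes (12 tested, median -0.01) were led by Txnl1, Sesn1 and Msrb3 (adjusted p = 0.318, 0.456 and 0.530). Txnip, the thioredoxin inhibitor, stood at 20.1 and 35.9 against 21.9 and 25.0 FPKM (adjusted p = 0.825). NADPH supply genes (7 tested, median 0.11) were led by H6pd, Mthfd1 and Idh1 (adjusted p = 0.342, 0.547 and 0.600). Other peroxidases (5 tested, median -0.07) were led by Gpx7 of the endoplasmic reticulum, at 2.98 and 1.95 against 5.43 and 7.69 FPKM (adjusted p = 0.0597), with Gpx8 and Gpx3 at 0.549 and 0.554.

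Drug-metabolizing genes held more calls than the members, where 1.53% of all tested genes were called higher and 0.619% lower. Glutathione transferases had 7 of 21 tested genes higher and 0 lower (Gstm1, Gstm2, Gstm3, Gstm4, Gsta1, Gsta2 and Gstp1), with a median log2 change of 0.38, and PXR and CAR targets, genes switched on by these drug-sensing nuclear receptors, had 14 of 17 higher and 0 lower, with a median of 2.36. With JIB-04 1 left out 2 transferases and 8 receptor targets were called, and with JIB-04 2 left out 1 and 8. The 14 receptor targets were the cytochromes P450 Cyp3a11, Cyp2b10, Cyp2c29, Cyp2c55 and Cyp2a5, the esterase Ces2a, the transferase Ugt1a1, the transporters Abcc3 and Slco1a4, the aldehyde and aldose metabolizing Aldh1a1, Aldh1a7 and Akr1b7, the sulfate donor synthase Papss2, and Gadd45b. The median of the members was 0.16, and their highest single change, 1.34 for Ephx1, lay below the median of the receptor targets. Abcc2 and Abcc3 are in both the receptor list and the list of other NRF2 targets. These lists, like the members, were chosen with earlier results of these data known, so their calls and medians are no independent evidence. These are counts and medians side by side, and the difference between the lists was not tested.

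**Figure D4:**
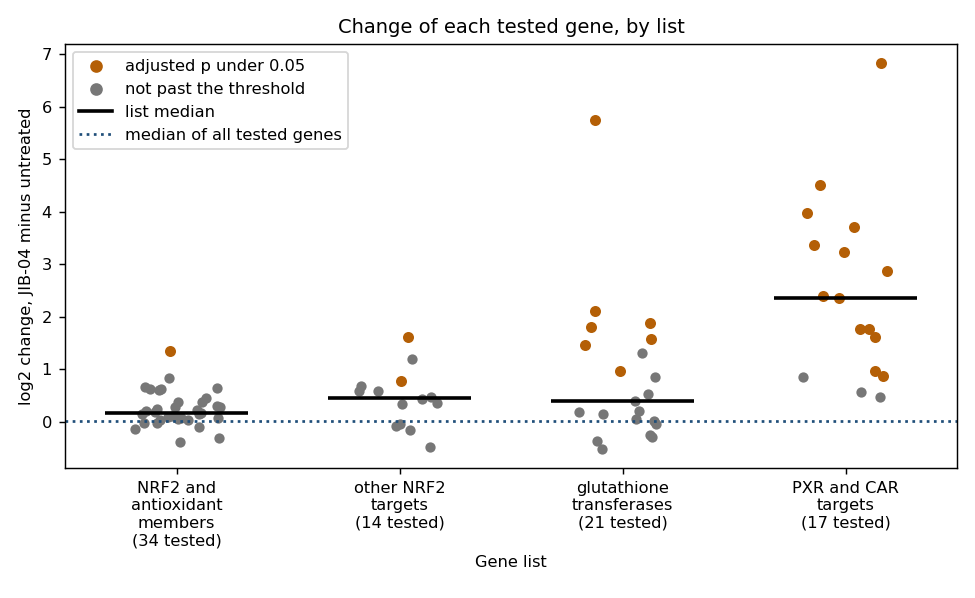
Log2 change of JIB-04 against untreated liver for each tested gene of 4 lists, with called genes in orange, others in grey, list medians as black bars and the median of all tested genes dotted. The 34 antioxidant members lie between -0.39 and 1.34 with 1 called, and the 17 receptor targets have a median of 2.36 with 14 called.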

How the data were processed

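The authors deposited 1 table of FPKM values (fragments scaled to the listed gene length and to library depth), with 1 column per library. Per the submitters' processing notes the build was GRCm39, and the aligner, counter, annotation release and strandedness are not given in the sources used. Multiplied by gene length, 100% of the values were whole reads within 0.01, so reads were recovered. The main test was limma 3.58.1 in R 4.3.3 (two-sided, with eBayes trend and robust options and 2 residual df) on log2(FPKM + 1) for 10819 genes with a mean of at least 1 FPKM. P-values were adjusted over all of them. The smallest exact two-sided permutation p for 2 against 2 libraries is 0.333. On simulated reads with known changes the fit recovered most large changes and missed many small ones, and the share of false calls was above the 0.05 that the threshold aims at, so calls near it are less sure than their adjusted p. The members and lists were chosen with earlier results of these data known. All members are named, and of the other lists the called genes, or the 3 of lowest adjusted p where none was called, plus Hmox1, Me1 and Txnip. Cell type markers are given as counts and summed FPKM. The marker gene Ahsp had no row under that symbol, and 1 of 2 rows named Nnt was used. Alternatives varied the pseudocount, filter, scaling, moderation, unit (voom), libraries and replicate block. Shared sequence was the share of 100-base stretches found in transcripts of another gene in GENCODE M21 (GRCm38), used for names only.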

Additional observations from a re-analysis of the deposited data

How the results depend on the processing

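Of 34 tested members, Ephx1, Sqstm1, Srxn1, Gsr, Aox1 and Txn1 changed their side of the threshold under any of 15 alternatives. Members called higher numbered 0 without a filter on low values, 5 with a mean of at least 5 FPKM, 6 with voom, 3 with the replicate block and 5 at an adjusted p under 0.1, and 0 to 2 when each library was left out in turn, where the lone library of a group is assumed to vary like the other group. Members called lower numbered 0 throughout. Counts over all genes were 165 higher and 67 lower. They became 20 and 0 without the filter, 157 and 70 of 5329 tested with a mean of at least 5 FPKM, 349 and 201 with voom, 236 and 121 with the replicate block and 294 and 170 at an adjusted p under 0.1. With TPM computed without the 50 most abundant and mitochondrial genes they were 156 and 105, so higher genes were 59.8% of calls against 71.1%. Leaving out each library gave 22 to 107 higher and 1 to 54 lower. The median of the members ran from 0.11 to 0.26 over left-out libraries and from 0.11 to 0.18 over the others. Directions turned for uncalled members near 0. In that trimmed TPM the log2 change was -0.013 for Nfe2l2, -0.030 for Osgin1 and -0.028 for Sod2, and with quantile normalization it was -0.0079 for Nfe2l2, -0.038 for Osgin1, -0.014 for Sod2 and -0.027 for Cat. Over left-out libraries it ran from -0.051 to 0.13 for Nfe2l2, -0.32 to 0.37 for Osgin1, -0.023 to 0.15 for Aox3, -0.039 to 0.25 for Txn2, -0.18 to 0.14 for Txnrd1, -0.046 to 0.21 for Txnrd2, -0.12 to 0.40 for Pgd, -0.24 to 0.18 for Taldo1 and -0.0089 to 0.060 for Sod2. The replicate numbers name no shared animal or day, and within-group deviations of same-numbered libraries had r = -0.05 across all tested genes and 0.25 across the 34 tested members. The block brought Sqstm1 (adjusted p = 0.0462) and Aox1 (0.0234) past the threshold. The causes of these shifts were not tested.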
